A study of Mus musculus with 18 samples.

Results

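Expression of 10 genes of the actin cytoskeleton was followed in pancreas of 18 mice aged 20 weeks: the cytoplasmic actins Actb and Actg1, the thymosins Tmsb4x and Tmsb10, profilin (Pfn1), cofilin (Cfl1), the Arp2/3 subunit Arpc1b, and the leukocyte-enriched regulators Coro1a, Lcp1 and Evl. They were taken by symbol from a table of 25651 genes. All 10 were found, and all 10 were among the 6920 genes that passed the filter on low counts, Evl through 5 KPC libraries and 1 KPC ASC KO library above the filter's level and none in WT. Evl had been chosen by its measured rise in KPC, so its values are a description with no test. The mice had a mixed background of 129Sv and C57BL/6 and fell into 6 wild-type (WT) mice, 7 mice of genotype KPC and 5 mice of genotype KPC ASC KO, with 1 library per mouse. Mice called KPC usually model pancreatic cancer, with mutant alleles switched on in pancreatic epithelium. ASC is the inflammasome adaptor protein encoded by Pycard, and the third group carried its knockout together with the KPC genotype. The labels do not spell out the KPC alleles, the Cre driver or the part of Pycard that was deleted, and give no sex, litter or histology.

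Actin exists as free monomers and as filaments, and cells move and change shape by shifting monomers between these pools. Thymosins hold monomers in reserve, profilin hands them to growing filament ends, cofilin takes old filaments apart, and the Arp2/3 complex starts new branches. Leukocytes are rich in these proteins and add their own regulators, such as coronin 1A and L-plastin. Free actin monomers also bind the MRTF coactivators and keep them from serum response factor (SRF), whose binding element, the CArG box, lies in the promoters of several actin genes.

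Promoter windows of 300 bases, from 250 before to 50 after an annotated start, were read from RefSeq on GRCm38.p6. They covered 9 of the 10 members in 14 windows, with Actb the member without one. Both strands were searched for the CArG box, for GAGGAAGT, the core letters of sites of the leukocyte factor PU.1, and for TATAAA. There were 2 windows with a match, and they are shown here because these 2 elements are the ones linked in general to actin genes and to leukocyte genes. The Actg1 window lies at chr11:120348446-120348745 on the minus strand, and its capitals mark a CArG box, CCATATATGG, at -90 to -81 from the start.
Actg1: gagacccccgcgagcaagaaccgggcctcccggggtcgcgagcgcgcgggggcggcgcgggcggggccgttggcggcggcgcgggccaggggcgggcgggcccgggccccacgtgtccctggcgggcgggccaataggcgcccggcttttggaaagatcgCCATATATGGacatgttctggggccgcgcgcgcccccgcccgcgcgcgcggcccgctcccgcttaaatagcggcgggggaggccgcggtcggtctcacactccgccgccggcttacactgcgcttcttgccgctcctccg
The Arpc1b window lies at chr5:145114006-145114305 on the plus strand, and its capitals mark GAGGAAGT at bases 3 to 10 of the transcript.
Arpc1b: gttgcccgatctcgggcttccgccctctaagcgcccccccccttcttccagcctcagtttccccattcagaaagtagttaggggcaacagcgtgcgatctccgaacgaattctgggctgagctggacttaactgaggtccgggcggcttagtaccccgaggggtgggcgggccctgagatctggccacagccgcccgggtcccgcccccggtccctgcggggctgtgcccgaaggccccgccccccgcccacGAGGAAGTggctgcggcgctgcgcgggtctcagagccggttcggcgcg
Of 32851 such windows of all genes, 1.63% held a CArG box, 3.2% held GAGGAAGT and 13.6% held TATAAA, which was in none of the 14. The 2 matches did not overlap another of the 3 motifs, and a match describes the letters only.

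Library totals ran from 294077 to 416879 counts in WT (median 354088), from 452472 to 1626977 in KPC (median 917213) and, for KPC ASC KO, from 374432 to 647947 (median 482464). Pycard was at 5.56 to 34.2 CPM in KPC ASC KO, where 33 counts remained over the 5 libraries, while WT mice had 45.4 to 65.5 CPM and KPC mice 35.1 to 99.5. CPM are counts relative to library size, which was corrected by the TMM method (trimmed means of log ratios between libraries). All 10 acinar markers, which define the labelled tissue, were detected in each group, and all 10 were lower in KPC than in WT and higher in KPC ASC KO than in KPC. KPC mice 40, 89, 145 and 154 stood apart, with B cell marker sums of 1758 to 2625 CPM against 172 to 464 in the other KPC mice and 345 to 502 in WT. Their T cell sums were 351 to 512 CPM, against 30.2 to 69.0 in the other KPC mice and 40.4 to 77.4 in WT. Their sums of duct markers were lower, at 527 to 888 CPM against 1759 to 1992 in KPC mice 43, 48 and 210. Among the KPC ASC KO mice, 377 and 384 stood apart, with macrophage sums of 1247 and 1176 CPM and fibroblast sums of 3067 and 2840, against 274 to 379 and 879 to 1031 in the other 3.

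All 9 tested members rose in KPC pancreas relative to WT, by 1.74-fold for Actb to 5.31-fold for Coro1a, with adjusted p from 0.000141 to 0.00662. Over all genes tested, 14.8% were called higher in this comparison, 15.1% lower and 29.9% in all. The median log2 difference of the 9 was 1.06, against 0.06 over all 6920 genes. Relative to KPC, all 9 estimates for KPC ASC KO were below 0 and 1 member, Lcp1, fell past the threshold. Of all genes 2.69% were called lower there, 6.73% higher and 9.42% in all. Between KPC ASC KO and WT no member passed, and all 9 estimates were above 0. Together the 10 genes, Evl included, made up 0.160% ± 0.0190 of a WT library (SD, n = 6), 0.751% ± 0.271 of a KPC library (SD, n = 7) and 0.276% ± 0.157 of a KPC ASC KO library (SD, n = 5). These are shares of total counts, and most genes move on that scale. With total counts, the median log2 difference of all genes was 1.41 in KPC against WT, and 79.6% were called higher. It was -1.14 in KPC ASC KO against KPC. In the comparison of KPC with WT under TMM scaling, 6 of 6 tested fibroblast markers (median log2 difference 1.39) and 6 of 7 macrophage markers (median 1.56) rose, and their part in the differences of the members was not tested. In bulk tissue, more cells of a type and more RNA per cell cannot be told apart.

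**Figure D1:**
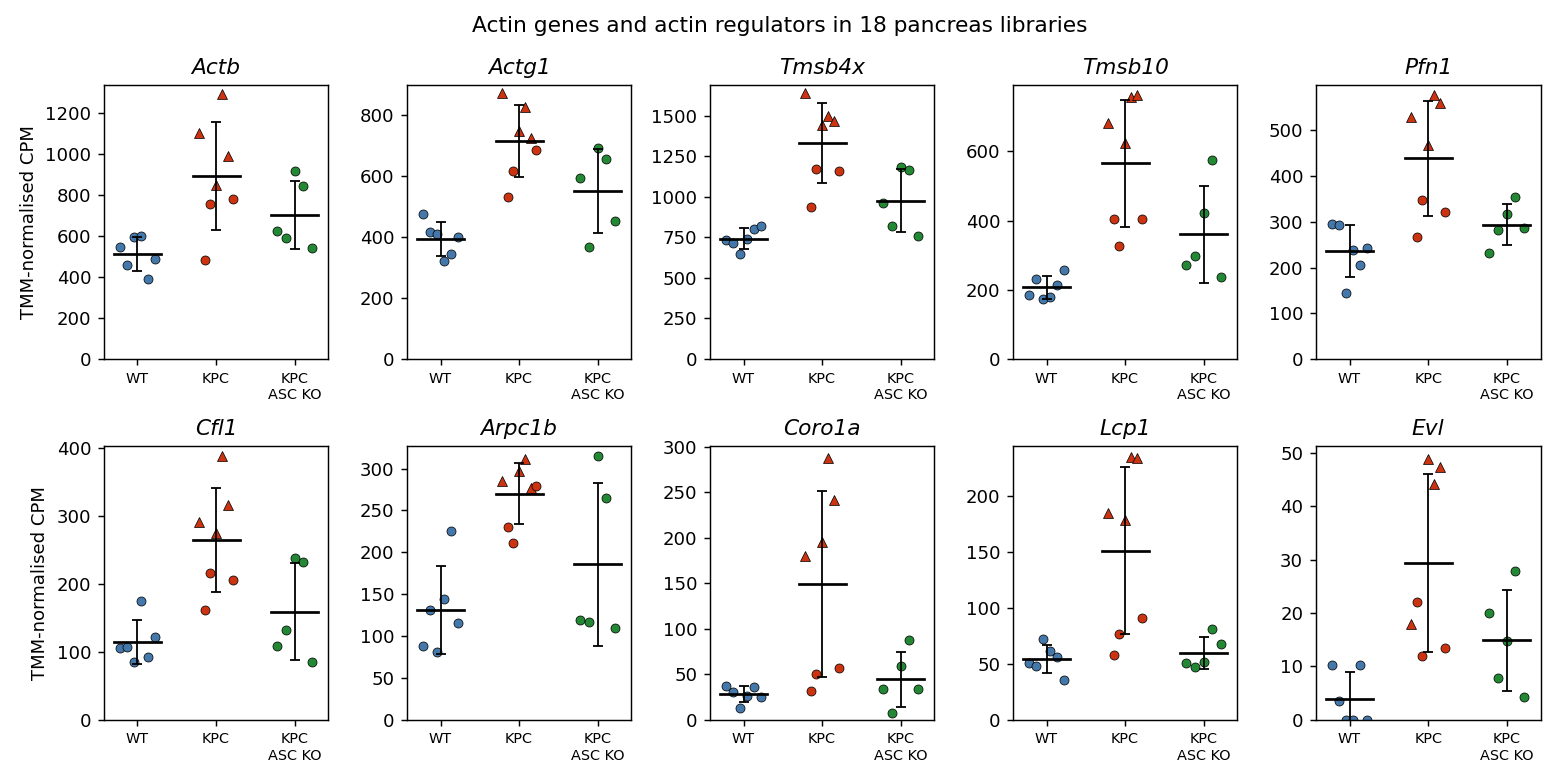
TMM-normalised CPM of the 10 genes (vertical axes, linear, from 0), 1 point per mouse, in WT, KPC and KPC ASC KO; long bars are means, whiskers are SD, and triangles are KPC mice 40, 89, 145 and 154. For Coro1a and Lcp1 these 4 mice lie at or above 179 CPM, and every other mouse lies below 100.

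Actb and Actg1 encode beta- and gamma-actin, the monomers of non-muscle filaments. Actb (ENSMUSG00000029580, chr5:142903115-142906754, GRCm38) had a lowest, median and highest value of 389.6, 517 and 599 CPM in WT and of 482, 849 and 1293 in KPC. The KPC ASC KO values were 627 CPM in mouse 318, 589.9 in 335, 917 in 377, 846 in 384 and 540.4 in 388. Of the KPC mice, 6 of 7 lay above every WT mouse, and KPC mouse 43 lay inside the WT range. The log2 difference of KPC from WT was 0.80 (SE 0.19, adjusted p = 0.00381), a 1.74-fold rise. The estimate for KPC ASC KO against KPC was -0.34 (adjusted p = 0.286), and the KPC ASC KO mice lay between the lowest and the highest KPC mouse.

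Actg1 (ENSMUSG00000062825, chr11:120345690-120348542) separated KPC from WT fully. Its lowest, median and highest values were 319.9, 405 and 476 CPM in WT and 531, 725 and 871 in KPC. The KPC ASC KO mice were at 593 CPM (318), 367 (335), 690.2 (377), 657 (384) and 452 (388), and 3 of the 5 exceeded every WT mouse. The rise in KPC was 0.85 on the log2 scale (SE 0.16, adjusted p = 0.000653). Actg1 was 1 of 3 tested members, with Tmsb4x and Tmsb10, in which every KPC mouse lay above every WT mouse, a pattern held by 3.77% of all genes, with the reverse in 5.09%. The count ratio of Actg1 to Actb within a library, which does not depend on scaling, had a median of 0.845 among WT, 0.816 among KPC and 0.777 among KPC ASC KO mice. Its log2 difference between KPC and WT was 0.09 (exact permutation test, two-sided, adjusted p = 0.809 over 15 ratio tests).

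Reads over 101 bases, the length sequenced here, can fit more than 1 gene. Of the windows of that length along the annotated Actg1 transcript, 50.9% also occur in other genes, pseudogenes such as Actg-ps1 among them, but none of those in its last 500 bases. For Actb the shared part was 1.04% in all and 0% in the last 500 bases. Libraries primed at the poly(A) tail read mostly near that end, and how shared reads were counted is not given in the sources used here. Neither tested muscle actin passed. Acta2, smooth muscle alpha-actin, had means of 55.0 ± 26.2 CPM among 6 WT, 84.0 ± 75.4 among 7 KPC and 55.4 ± 33.9 among 5 KPC ASC KO mice (SD), with a log2 difference of KPC from WT of 0.54 (SE 0.59, adjusted p = 0.520). Actg2, smooth muscle gamma-actin, had a log2 difference of -0.73 (SE 1.02, adjusted p = 0.624). The skeletal and cardiac actins Acta1 and Actc1 had 34 and 1 counts over the KPC libraries and 0 in WT, and were not tested.

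Tmsb4x and Tmsb10 encode thymosin beta 4 and beta 10, small proteins that sequester actin monomers. Tmsb4x (ENSMUSG00000049775, chrX:167207093-167209315) ran from 645 through a median of 739 to 818 CPM in WT and from 937 through 1441 to 1640.3 in KPC. With ASC knocked out it was at 963 CPM in mouse 318, 820.5 in 335, 1182 in 377, 1165 in 384 and 756 in 388, with 4 of 5 above every WT mouse. The rise in KPC was 0.84 on the log2 scale (SE 0.16, adjusted p = 0.000656). Tmsb4x had the smallest spread of the members in WT, a coefficient of variation of 8.35% against a median of 21.1% over genes of at least 100 CPM. Those genes were not matched to it for counts, and Tmsb4x held 144 to 216 counts in a WT library.

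Tmsb10 (ENSMUSG00000079523, chr6:72957347-72958748) changed more. Its lowest, median and highest values were 174, 199.5 and 258 CPM in WT and 326, 624 and 763 in KPC, with no overlap. The log2 difference was 1.45 (SE 0.23, adjusted p = 0.000141), a 2.74-fold rise. Tmsb10 in KPC ASC KO was at 271 CPM in mouse 318, 297 in 335, 421 in 377, 575 in 384 and 236 in 388. Of these 5 mice, 4 lay above every WT mouse, and 3 below every KPC mouse. Against KPC the estimate was -0.65 (adjusted p = 0.0776), and against WT it was 0.81 (SE 0.24, adjusted p = 0.262), the largest of the 9 in that comparison. Windows shared with the protein-coding Gm9844 or with Gm3788 make up 31.0% of the last 500 bases of Tmsb10, so part of its counts may be ambiguous.

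**Figure D2:**
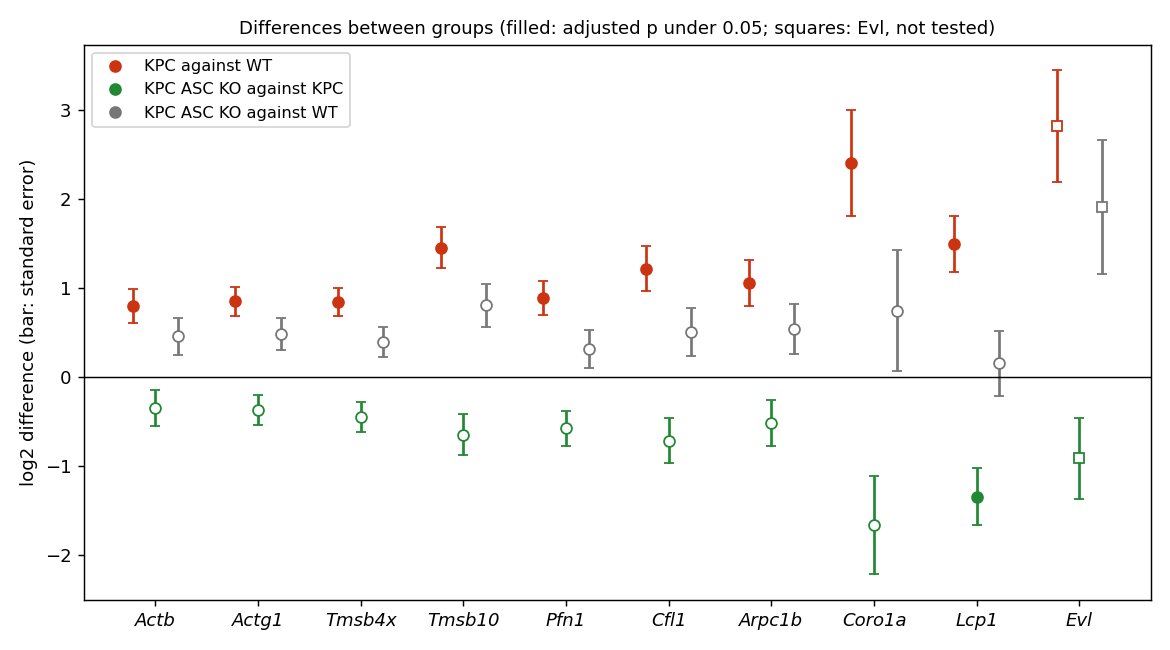
Log2 differences (vertical axis) with standard errors for each gene in the 3 comparisons; filled circles have an adjusted p under 0.05 and squares are Evl, which was not tested. The 9 tested genes are filled and above 0 in KPC against WT, and among the points of KPC ASC KO against KPC, Lcp1 at -1.34 is the one filled.

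The ratio of Tmsb10 to Tmsb4x counts within a library shifted as well. Its lowest, median and highest values were 0.246, 0.272 and 0.324 in WT and 0.279, 0.432 and 0.519 in KPC. Among KPC ASC KO mice it was 0.282 in mouse 318, 0.363 in 335, 0.357 in 377, 0.494 in 384 and 0.315 in 388. In 6 of 7 KPC mice the ratio lay above every WT mouse, and KPC mouse 48 lay inside the WT range. The mean log2 ratio was -1.28 ± 0.31 in KPC (SD, n = 7) and -1.84 ± 0.17 in WT (SD, n = 6), a difference of 0.56 (exact permutation test, two-sided, p = 0.00408 and adjusted p = 0.035). With 1 mouse left out the adjusted p ran from 0.0325 to 0.0947, and the call held only when KPC mouse 48 was the one left out. Against KPC the ratio in KPC ASC KO differed by -0.21 (exact permutation test, adjusted p = 0.574).

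Pfn1 encodes profilin 1, which loads monomers onto growing filament ends, and Cfl1 encodes cofilin 1, which severs old filaments. Pfn1 (ENSMUSG00000018293, chr11:70651850-70654644) had a lowest, median and highest value of 144, 239.9 and 296 CPM in WT and of 266, 468 and 578 in KPC. The KPC ASC KO mice had a coefficient of variation of 15.6%, at 231 CPM in mouse 318, 281 in 335, 317 in 377, 354 in 384 and 287 in 388. KPC mouse 43 fell inside the WT range, and the other 6 KPC mice lay above it. The rise in KPC was 0.89 (SE 0.20, adjusted p = 0.00197), and the estimate for KPC ASC KO against KPC was -0.58 (adjusted p = 0.0711).

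Cfl1 (ENSMUSG00000056201, chr19:5490455-5495201) ran from 84.8 through 106 to 175 CPM in WT and from 161 through 275 to 388 in KPC. The rise was 1.22 on the log2 scale (SE 0.25, adjusted p = 0.00127), a 2.33-fold change. Cfl1 in KPC ASC KO split into 108, 133 and 84.4 CPM in mice 318, 335 and 388 and 237 and 232 CPM in mice 377 and 384. The first 3 were below every KPC mouse, and the last 2 were above every WT mouse and lay inside the KPC range. The estimate against KPC was -0.71 (adjusted p = 0.0735).

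Cofilin and profilin work beside other turnover factors, of which 12 were tested. Of all genes, 14.8% were called higher in KPC against WT. In KPC 5 rose, among them Wdr1, a cofilin cofactor (1.36, adjusted p = 0.00192), Cap1, which recycles monomers (1.26, adjusted p = 0.00495), Twf2, a twinfilin (1.30, adjusted p = 0.0162), and Ssh2, a phosphatase that activates cofilin (1.09, adjusted p = 0.0176). Cap1 and Ssh2 fell in KPC ASC KO relative to KPC, by 1.32 (adjusted p = 0.0141) and 1.22 (adjusted p = 0.0244) on the log2 scale. Cap1 had means of 33.5 ± 25.7 CPM among 6 WT, 80.4 ± 25.1 among 7 KPC and 32.3 ± 6.57 among 5 KPC ASC KO mice (SD). The other cofilin-like genes did not pass with all mice, with log2 differences of -0.51 for Cfl2 (adjusted p = 0.155) and 0.12 for Dstn, destrin (adjusted p = 0.725), but Dstn rose by 0.66 (adjusted p = 0.0397) without KPC mice 40, 89, 145 and 154.

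Arpc1b encodes an isoform of a core subunit of the Arp2/3 complex that is prominent in blood cells, and Arpc1a encodes the alternative isoform. Arpc1b (ENSMUSG00000029622, chr5:145114215-145130705) had the tightest values of the members in KPC, from 211 through a median of 279 to 311 CPM, a coefficient of variation of 13.4% against a median of 21.4% over genes of at least 100 CPM, which were not matched for counts. In WT its lowest, median and highest values were 80.6, 124 and 226 CPM. The rise in KPC was 1.06 on the log2 scale (SE 0.26, adjusted p = 0.00417), and 6 of 7 KPC mice lay above every WT mouse. Among KPC ASC KO mice it was at 119.7 CPM in mouse 318, 117 in 335, 315 in 377, 265 in 384 and 109.8 in 388. Mouse 377 exceeded every KPC mouse and mouse 384 lay inside the KPC range, while the other 3 were below every KPC mouse. The estimate against KPC was -0.52 (adjusted p = 0.201).

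Arpc1a itself did not pass in KPC against WT (0.20, adjusted p = 0.355). The ratio of Arpc1b to Arpc1a counts had a lowest, median and highest value of 0.951, 1.20 and 2.87 in WT and of 2.03, 2.92 and 3.05 in KPC. The difference in mean log2 ratio was 0.91 (exact permutation test, two-sided, p = 0.00466 and adjusted p = 0.035), with 4 of 7 KPC mice above every WT mouse and WT mouse 1237 alone among WT at 2.87. With ASC knocked out the ratio was 0.825 in mouse 318, 1.36 in 335, 2.53 in 377, 3.02 in 384 and 1 in 388. The difference from KPC was -0.77 (exact permutation test, adjusted p = 0.152). Its adjusted p ran from 0.0455 to 0.268 with 1 mouse left out. It passed only without KPC ASC KO mouse 384, the mouse with the highest ratio in that group. Mice 377 and 384, which had the high ratios, also had the high macrophage and fibroblast sums given above, and the part of those cells in the ratio was not tested. The ratio of WT mouse 1237 rests on 44 Arpc1b and 15 Arpc1a counts, so it is known only roughly. Its macrophage sum was 420.4 CPM, inside the WT range of 235 to 424. With 1 mouse left out the adjusted p for KPC against WT ran from 0.0189 to 0.0947 and passed when WT mouse 1237 (0.0189) or KPC mouse 48 (0.0487) was left out.

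**Figure D3:**
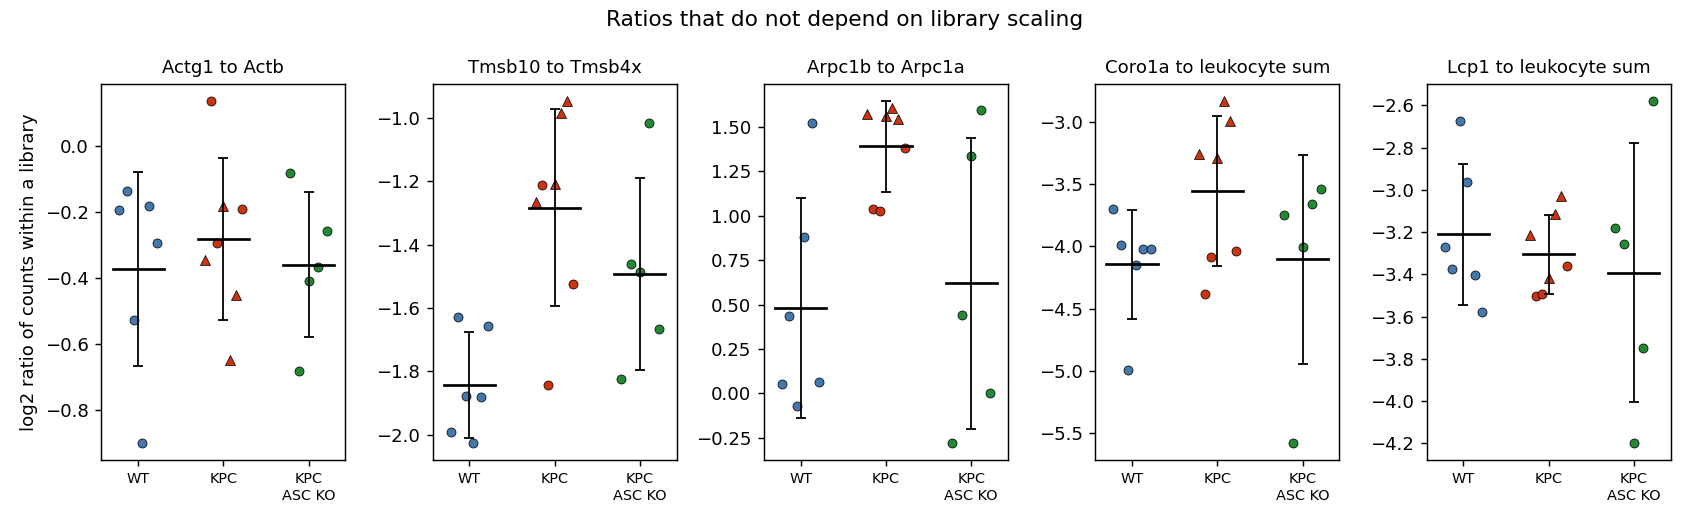
Log2 ratios of counts within a library (vertical axes), 1 point per mouse with mean and SD, for 5 pairs; triangles are KPC mice 40, 89, 145 and 154. The means of KPC and WT differ by 0.56 for Tmsb10 to Tmsb4x and by 0.91 for Arpc1b to Arpc1a, and by 0.09 for Actg1 to Actb.

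The 8 other subunits of the Arp2/3 complex were all tested, and 3 rose in KPC, where 14.8% of all genes did. Without KPC mice 40, 89, 145 and 154, 1 of 8 rose, where 6.94% of all genes did. Arpc2 went from 219 ± 24.5 CPM (SD, n = 6) to 459 ± 118 (SD, n = 7), a log2 difference of 1.07 (adjusted p = 0.000229), and with ASC knocked out stood at 298 ± 73.7 (SD, n = 5). Arpc5 and Arpc3 rose by 0.95 (adjusted p = 0.00717) and 0.92 (adjusted p = 0.009). Relative to KPC, Arpc2 fell in KPC ASC KO by 0.62 (adjusted p = 0.038) and Actr2, the Arp2 subunit, fell by 0.89 (adjusted p = 0.0381). Neither passed in limma-voom, in the fit of 2 groups, without KPC mouse 145 or 154 or without KPC ASC KO mouse 318, 335 or 388, nor did Arpc2 without KPC mouse 40 or 89 or Actr2 without KPC ASC KO mouse 377. The median log2 difference of the 8 was 0.55 in KPC against WT and -0.62 in KPC ASC KO against KPC.

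Coro1a, Lcp1 and Evl belong to leukocytes more than to epithelium: coronin 1A restrains Arp2/3 branches, L-plastin bundles filaments, and Evl is an Ena/VASP protein that lengthens them. Coro1a (ENSMUSG00000030707, chr7:126699773-126707787) had 3 to 11 counts in a WT library, so single WT values are imprecise. It was above the level of the low-count filter in 3 WT, 7 KPC and 2 KPC ASC KO libraries. Its lowest, median and highest values were 12.7, 28.4 and 37.4 CPM in WT and 31.7, 179.8 and 287 in KPC. KPC mice 40, 89, 145 and 154 were at 179.8, 196, 287 and 241 CPM, and KPC mice 43, 48 and 210 at 31.7, 50.4 and 57.0, so the KPC group fell into 2 separate ranges. The log2 difference of 2.41 (SE 0.60, adjusted p = 0.00662) was larger than that of 99.5% of all genes tested, and the call was lost in limma-voom (2.02, adjusted p = 0.17). Coro1a in KPC ASC KO was at 34.2 CPM in mouse 318, 7.81 in 335, 59.4 in 377, 87.2 in 384 and 33.8 in 388, and the estimate against KPC was -1.66 (SE 0.55, adjusted p = 0.0684). Its coefficient of variation was 68.6% in KPC and 67.6% in KPC ASC KO, where its libraries held 2 to 47 counts.

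Lcp1 (ENSMUSG00000021998, chr14:75131101-75230842) showed the same 2 ranges in KPC, with 185, 179, 235 and 234 CPM in mice 40, 89, 145 and 154 and 58.4, 76.8 and 91.5 in mice 43, 48 and 210. In WT it ran from 35.3 through a median of 53.7 to 72.1 CPM. The rise in KPC was 1.49 on the log2 scale (SE 0.32, adjusted p = 0.00173). Among KPC ASC KO mice it was at 51.3 CPM in mouse 318, 46.9 in 335, 52.0 in 377, 81.6 in 384 and 67.6 in 388, with a log2 difference from WT of 0.16 (SE 0.36, adjusted p = 0.928). The fall relative to KPC was -1.34 (SE 0.32, adjusted p = 0.0141), with 3 of 5 mice below every KPC mouse, a 2.53-fold lower level. The call was lost when KPC ASC KO mouse 318 (-1.26, adjusted p = 0.0524) or 335 (-1.25, adjusted p = 0.0567) was left out, in limma-voom (-1.19, adjusted p = 0.0763) and in a fit of the 2 groups alone (-1.33, adjusted p = 0.0609).

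Evl (ENSMUSG00000021262, chr12:108554720-108688516) was the least counted member. WT libraries held 6 counts in all, with 3 of 6 at 0 and the highest at 10.3 CPM. Every KPC mouse lay above WT, with a median of 22.1 CPM and 5 counts in the lowest, mouse 48. Mice 89, 145 and 154 were at 48.9, 44.1 and 47.3 CPM and the other 4 at 22.1 or less. KPC mouse 40, at 18.0 CPM, sat with the lower KPC mice for Evl although its Coro1a and Lcp1 were among the higher values. Evl in KPC ASC KO was at 19.9 CPM in mouse 318, 7.81 in 335, 14.8 in 377, 27.8 in 384 and 4.22 in 388, between the WT and KPC means of 3.99 and 29.4 CPM. The fitted log2 differences were 2.82 for KPC against WT, -0.91 for KPC ASC KO against KPC and 1.91 for KPC ASC KO against WT. Evl overlaps Mir342 on its own strand, and Coro1a, Lcp1, Arpc1b, Cfl1 and Evl each overlap at least 1 gene on the opposite strand. Whether counting used strand is not given in the sources used here.

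The KPC mice with the high Coro1a and Lcp1 values were also those with the most general leukocyte RNA. The sum of 11 leukocyte markers (Ptprc, Laptm5, Cd52 and others, no member among them) was 449 to 620.3 CPM among WT, 663 to 2039 among KPC and 414 to 1109 among KPC ASC KO mice. All 11 markers were detected in each group, 10 of 11 rose in KPC, where 14.8% of all genes did, and 4 of 11 fell in KPC ASC KO relative to KPC, where 2.69% did. With 1 mouse left out 9 to 11 rose and 0 to 9 fell, where 11.4% to 16.2% and 0.23% to 5.62% of all genes did. In limma-voom 4 rose and 1 fell, where 7.02% and 1.2% of all genes did. In the fit of 2 groups 0 of 11 fell, where 0.527% of all genes did. Without KPC mice 40, 89, 145 and 154 the counts were 1 and 0 of 9, where 6.94% and 0.0171% of all genes were called. KPC mice 40, 89, 145 and 154 had sums of 1725, 1916, 2039 and 1914 CPM, and KPC mice 43, 48 and 210 of 663, 876 and 947. The part of the leukocyte share in the differences of the members was not tested. As a description, the ratio of Lcp1 counts to the leukocyte sum ran from 0.0838 to 0.157 among WT mice, with medians of 0.0974 for KPC mice and 0.105 for KPC ASC KO mice, and its mean log2 ratio differed by -0.09 between KPC and WT (exact permutation test, adjusted p = 0.809). The ratio of Coro1a to the same sum had medians of 0.0616 (WT), 0.102 (KPC) and 0.0746 (KPC ASC KO), with a log2 difference of 0.59 between KPC and WT (exact permutation test, adjusted p = 0.203). It was 0.102 to 0.141 in KPC mice 40, 89, 145 and 154, the mice with the high B cell and T cell sums. In KPC mice 43, 48 and 210 it was 0.0480 to 0.0610.

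**Figure D4:**
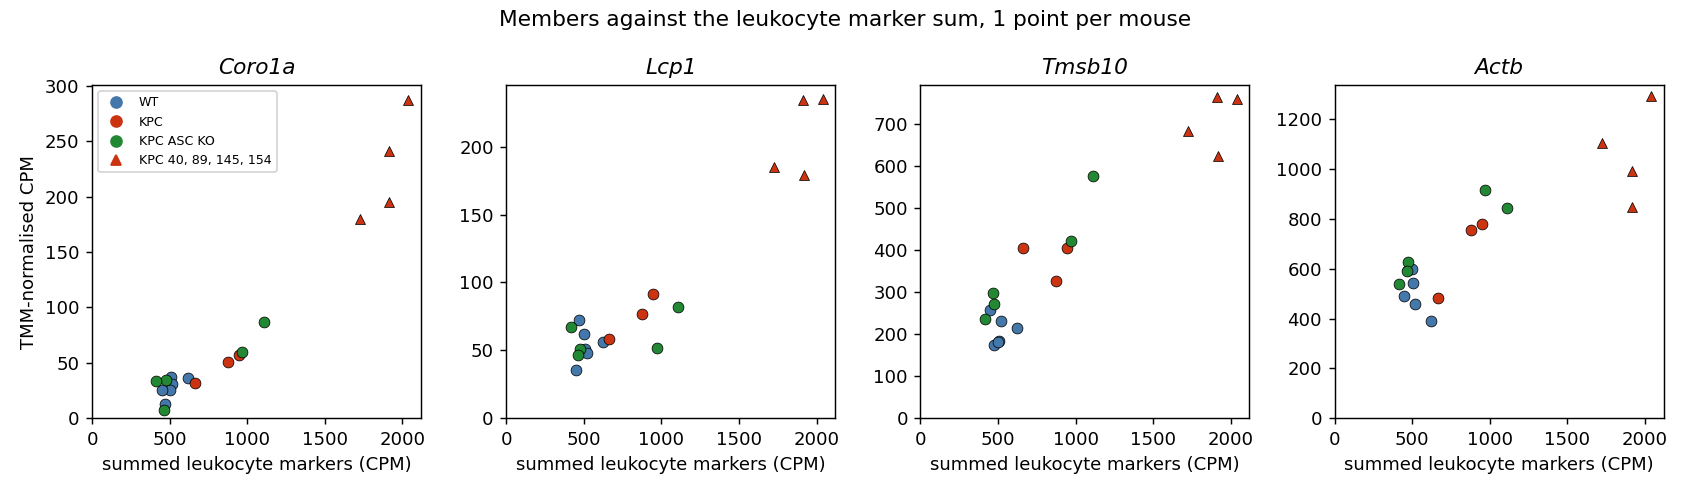
TMM-normalised CPM of Coro1a, Lcp1, Tmsb10 and Actb (vertical axes) against the summed CPM of 11 leukocyte markers (horizontal axes), 1 point per mouse; triangles are KPC mice 40, 89, 145 and 154. These 4 mice lie at sums of 1725 to 2039 CPM, above every other mouse, and the remaining KPC mice lie at 663 to 947.

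A fit without KPC mice 40, 89, 145 and 154 was chosen after seeing the data, and 2 of the 9 members passed there in KPC against WT. Actg1 rose by 0.65 (adjusted p = 0.0361) and Tmsb10 by 0.90 (adjusted p = 0.0129). The estimates of the other 7 stayed above 0, from 0.41 for Actb (adjusted p = 0.216) to 0.91 for Arpc1b (adjusted p = 0.0849), and that of Coro1a was 0.68 (adjusted p = 0.306). Over all genes the fit then called 752 in place of 2070. The counterpart without KPC mice 43, 48 and 210 called 9 of 9 members and 2566 genes. Against the 3 KPC mice left, no difference of a member in KPC ASC KO passed in edgeR, Lcp1 was at -0.30 (adjusted p = 0.67), and the estimates of Actb (0.07) and Coro1a (0.10) turned above 0. That fit called 1 gene in all. Against KPC mice 40, 89, 145 and 154 alone, 8 of the 9 members fell, all but Arpc1b (-0.61, adjusted p = 0.131), where 14% of all genes were called lower and 15.3% higher. Coro1a was then at -2.21 and Lcp1 at -1.78. KPC mice 40, 89, 145 and 154 are those in which both genes were highest, so their choice fixed these falls in part. Calls that rest on these KPC mice alone, against WT or KPC ASC KO, are a description and no test.

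For KPC ASC KO against KPC, 7 of the 9 members had an unadjusted p under 0.05. No member's groups were fully apart, as were those of 1.05% of all genes downward and 1.24% upward. The number called depended on single libraries. It was 6 without KPC mouse 43, 4 without KPC mouse 48 or 210 or KPC ASC KO mouse 384, 2 without KPC ASC KO mouse 377, and 0 without KPC ASC KO mouse 318 or 335. The share of all genes called lower moved as well, to 5.62% without KPC mouse 43, 5.58% without 48, 4.38% without 210, 3.23% without KPC ASC KO mouse 384, 2.5% without 377, 0.333% without 318 and 0.23% without 335. Scaling mattered too: with total counts only, 9 of 9 were called lower, but that scaling moved the median of all genes from -0.05 to -1.14. In KPC against WT the same scaling moved the median of all genes from 0.06 to 1.41, and the 9 members rose under it as under TMM.

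KPC ASC KO against WT gave 0 called genes of 6920 in edgeR (0% of genes tested), with 691 genes at an unadjusted p under 0.05, 0 called by limma-voom and 10 by DESeq2. The 9 members ran from 0.16 for Lcp1 to 0.81 for Tmsb10 with a median of 0.49, against 0.0049 over all genes. An unadjusted p under 0.05 was reached by 4 members: Tmsb10, Actg1 (0.49), Tmsb4x (0.40) and Actb (0.46), with adjusted p of 0.262 to 0.465. None had all 5 KPC ASC KO mice above all 6 WT mice, as 0.506% of genes did, and none the reverse, as 0.477% did.

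Beyond the members, 9 lists of actin pathway genes held 92 genes, of which 91 were in the table and 74 were tested. In KPC against WT, 32 of the 74 rose and 0 fell, where 14.8% of all genes rose and 15.1% fell, with a median log2 difference of 0.72 beside 0.06 over all genes. With limma-voom the count was 18, where 7.02% of all genes rose. Without KPC mice 40, 89, 145 and 154 it was 12 higher and 1 lower of 66, where 6.94% of all genes rose and 5.91% fell. Of the 32 genes, only Actn1, Actn4, Arpc2, Capg, Coro2a and Ezr were among those 12. The other rises of pathway genes named in this text were not called without these 4 mice, unless given as called in that fit. Between KPC ASC KO and KPC, 9 fell and 0 rose with a median of -0.37, where 2.69% of all genes fell and 6.73% rose. In limma-voom 3 fell (Cap1, Ssh2 and Lsp1), where 1.2% of all genes did. In the fit of 2 groups, 3 of these 9 genes fell (Cap1, Ssh2 and Hcls1), where 0.527% of all genes did. Without those 4 mice 0 fell, where 0.0171% of all genes did. With 1 mouse left out the count that fell ran from 1, without KPC ASC KO mouse 388, to 15, without KPC mouse 48 or KPC ASC KO mouse 384. Of all genes 0.32%, 5.58% and 3.23% fell in these 3 fits. Of the 9 genes that fell, Hcls1 passed with any 1 of the 12 mice left out and Cap1 with 11 of them, Ssh2 and Apbb1ip with 8, Actr2 with 6, Arpc2, Cnn2 and Lsp1 with 5 and Vasp with 4. Against WT none of the 74 passed in KPC ASC KO, in edgeR or in limma-voom. The low-count filter can be met through KPC libraries alone, which lets in genes that are low elsewhere. Hcls1, Apbb1ip, Fmnl1, Nckap1l, Vcl, Capza1 and Coro2a rose, with means of 5.55 to 19.55 CPM in WT and in KPC ASC KO. These means were below the filter's level of 21.4. That level is set on total counts and the means are TMM-corrected, so other genes may also have met it through KPC alone. For such genes the rise in KPC and any fall from it are not independent of the filter. In a fit of WT and KPC ASC KO alone, 36 pathway genes were tested.

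Among genes that switch on the Arp2/3 complex, 6 of 11 tested rose in KPC, where 14.8% of all genes did. Hcls1, the leukocyte relative of cortactin, rose by 1.81 (adjusted p = 0.00226) and fell by 1.65 in KPC ASC KO relative to KPC (adjusted p = 0.0117). The fall of Hcls1 was lost in limma-voom (adjusted p = 0.108) and without KPC mice 40, 89, 145 and 154 (-0.65, adjusted p = 0.534). Its mean level was 13.4 ± 6.00 CPM among 6 WT, 44.8 ± 21.3 among 7 KPC and 14.3 ± 3.23 among 5 KPC ASC KO mice (SD). Nckap1l, the blood-cell subunit of the WAVE complex, rose by 1.73 (adjusted p = 0.0118), and its broadly expressed counterpart Nckap1 was at -0.18 (adjusted p = 0.71). Other WAVE complex genes were mixed. Abi1 (0.89, adjusted p = 0.0212) and Cyfip1 (0.83, adjusted p = 0.0403) rose, while Wasf2 (0.19, adjusted p = 0.474) and Cyfip2 (-0.79, adjusted p = 0.177) did not pass. Brk1, a small subunit shared by WAVE complexes, rose by 0.76 (adjusted p = 0.012).

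Ena/VASP proteins and formins lengthen unbranched filaments, and 3 of 7 tested rose in KPC, where 14.8% of all genes did. Vasp, a relative of Evl, rose by 1.09 (adjusted p = 0.00266) and fell by 0.78 in KPC ASC KO relative to KPC (adjusted p = 0.0453). Enah, the third relative, was at -0.10 (adjusted p = 0.857). Apbb1ip, the adaptor RIAM that links Rap1 to Ena/VASP proteins in leukocytes, rose by 1.76 (adjusted p = 0.0079) and fell by 1.66 (adjusted p = 0.0247). Both falls were lost in limma-voom (adjusted p = 0.0564 for Vasp and 0.22 for Apbb1ip). They were also lost in the fit of 2 groups (adjusted p = 0.076 for Vasp and 0.0761 for Apbb1ip). Fmnl1, a leukocyte formin, rose by 1.93 (adjusted p = 0.0189).

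Of 12 tested bundling proteins and coronins 7 rose in KPC, and of 9 capping and severing proteins 3 did, where 14.8% of all genes rose. Lsp1, a leukocyte actin-binding protein, went from 50.8 ± 10.2 CPM (SD, n = 6) to 141 ± 48.3 (SD, n = 7), a rise of 1.48 (adjusted p = 0.00217), and fell by 1.00 in KPC ASC KO (adjusted p = 0.0462). The fall of Lsp1 was lost in the fit of 2 groups (adjusted p = 0.112). Flna, filamin A, rose by 0.97 (adjusted p = 0.00555), and Coro2a, another coronin, by 1.31 (adjusted p = 0.00587). Capg, the macrophage capping protein, rose by 1.32 (adjusted p = 0.00233), from 27.1 ± 6.28 CPM (SD, n = 6) to 69.1 ± 6.22 (SD, n = 7). The capping protein subunits Capza1 and Capzb rose by 1.62 (adjusted p = 0.00987) and 0.53 (adjusted p = 0.0269).

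Of the 3 proteins that tie filaments to the membrane, Msn (moesin, 1.63, adjusted p = 0.0108) and Ezr (ezrin, 0.93, adjusted p = 0.00697) rose in KPC. Rdx (radixin) was at -0.02 (adjusted p = 0.941). In this comparison 14.8% of all genes rose.

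The SRF axis, to which the CArG box in the Actg1 window relates by its letters, had 10 tested genes, of which 3 rose in KPC, where 14.8% of all genes did. In limma-voom 1 rose, where 7.02% of all genes did, and without KPC mice 40, 89, 145 and 154 it was 0 of 9, where 6.94% did. Cnn2, calponin 2, rose by 2.10 (adjusted p = 0.002) and fell by 1.44 in KPC ASC KO (adjusted p = 0.0348). That fall was lost in limma-voom, in the fit of 2 groups, with no low-count filter, and when KPC mouse 40, 89, 145 or 154 or KPC ASC KO mouse 318, 335 or 388 was left out. Myh9, the heavy chain of non-muscle myosin, rose by 0.86 (adjusted p = 0.0112), and Vcl, vinculin, by 1.70 (adjusted p = 0.0158). Mrtfa was at 0.76 (adjusted p = 0.257) and Mrtfb at -0.16 (adjusted p = 0.775), and Srf, with 18 counts over WT, 102 over KPC and 17 over KPC ASC KO libraries, was not tested.

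**Figure D5:**
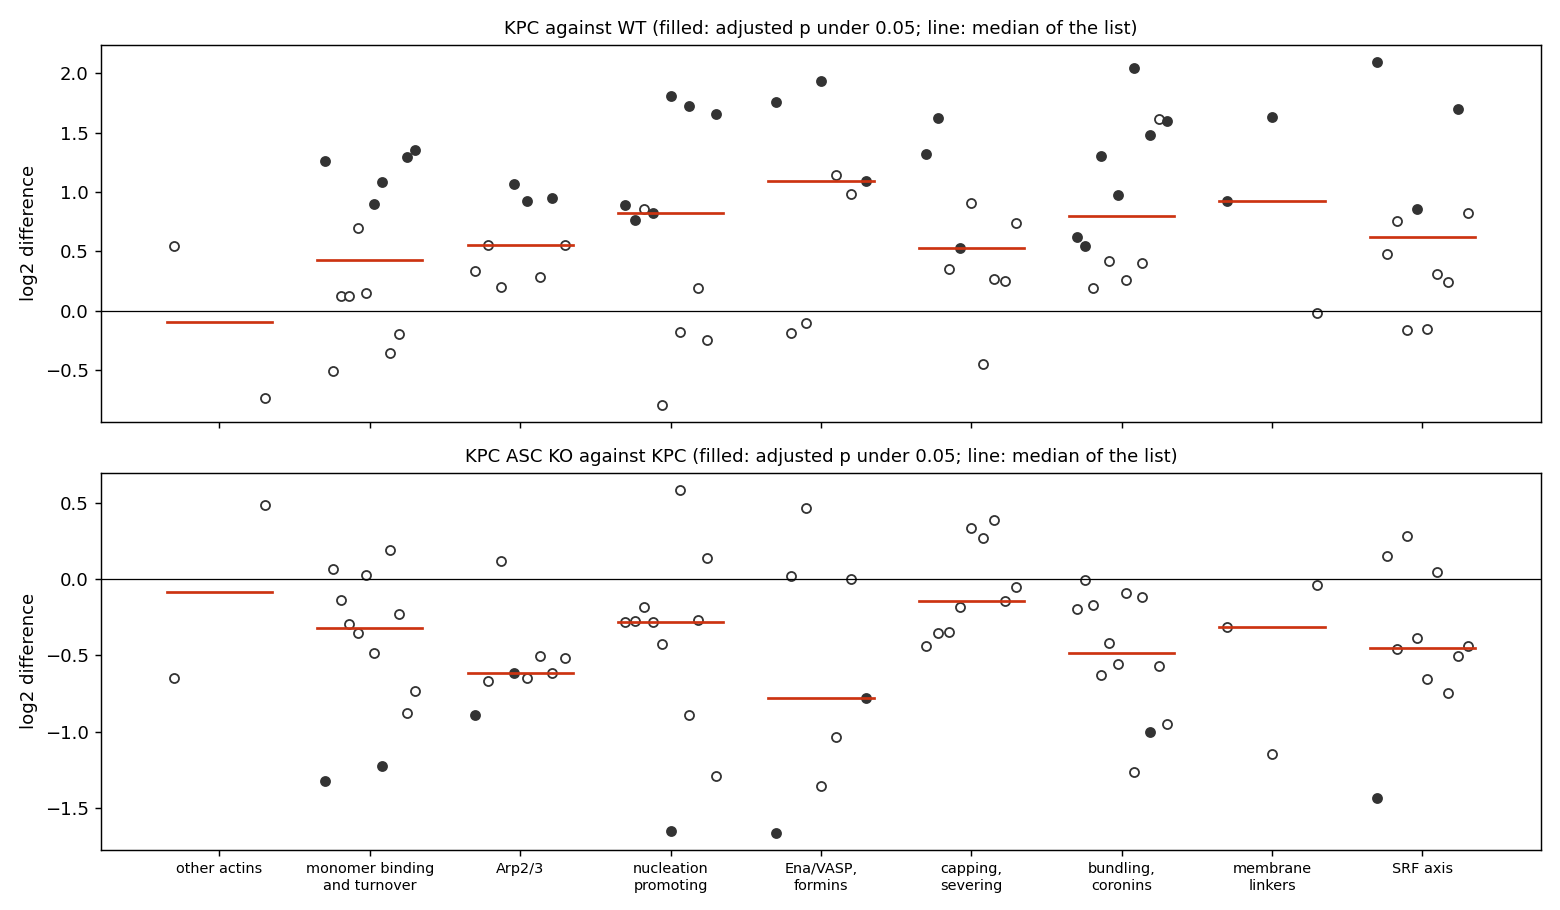
Log2 differences (vertical axes) of the 74 tested pathway genes by list, for KPC against WT (upper panel) and KPC ASC KO against KPC (lower panel); filled points have an adjusted p under 0.05 and lines are list medians. In the upper panel 32 points are filled, all above 0, and in the lower panel 9 are filled, all below 0.

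The genes whose profiles over the 18 mice lay closest to 4 of the members were found by the root mean square difference of log2 CPM after each profile was centred on its mean. For Tmsb4x these were Myl12a, a myosin light chain (0.19), Arpc2 (0.20) and Klf6 (0.21), where the median over all genes was 0.68. For Actb they were Clta (0.24), Ifi30 (0.25) and the pseudogene Rpl23a-ps3 (0.27), with a median of 0.72. Coro1a lay closest to Pou2f2, a lymphocyte transcription factor (0.41), the blood-cell GTPase Rac2 (0.44) and Sp110 (0.46), with a median of 1.36. Evl lay closest to Serpinb6b (0.56), Gpsm3 (0.63) and Fgd2 (0.63), with a median of 1.40. The closest profiles of Coro1a and Evl were farther off than those of Actb and Tmsb4x, and so were their medians over all genes. The measure is not scaled for how much a gene varies, so the distances do not rank the 4 members.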

How the data were processed

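Per the labels' protocols, primers on the poly(A) tail of pancreas RNA carried a sample index and a unique molecular identifier (UMI), and 101 bases of cDNA were read. The authors deposited whole-number counts per gene, not normalised, in a table named for UMI counts. Per the submitters' processing notes, limma 3.50.0, edgeR 3.36.0 and R 4.1.2 were used with builds mm10 and GRCm38. Not given in the sources used here are the aligner, UMI collapsing, strand use and annotation release.

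Here, all 18 libraries were fitted in 3 groups with edgeR 4.0.16 in R 4.3.3: filterByExpr (minimum count 10, smallest group of 5), TMM scaling, robust quasi-likelihood F test, Benjamini-Hochberg adjustment over 6920 genes, and calls at an adjusted p under 0.05. Library totals ran from 294077 to 1626977 counts, so a gene at 10 counts in a library is known only roughly. Ratios are log2 of counts plus 0.5, compared by exact permutation tests adjusted over 15. The alternatives were other scalings, DESeq2 1.42.0, limma-voom (limma 3.58.1), other filters, fits of 2 groups and leaving mice out. Members, gene lists and tests were chosen with earlier results of these data known. The text names all members, then from each pathway list up to 3 genes with the smallest p in KPC against WT and up to 3 called in the other comparisons. Counterparts of named genes (Cfl2, Dstn, Arpc1a, Nckap1, Enah, Mrtfa, Mrtfb, Acta1, Actc1 and Srf) were added after their values were seen. So were the WAVE complex genes Abi1, Cyfip1, Wasf2 and Cyfip2. A further pathway list is not reported here. Positions come from the deposited table, and shared windows and overlapping genes from GENCODE M21. The fit was tested on simulated counts. Of 100 genes changed 2-fold it called 28 in KPC against WT, 30 in KPC ASC KO against KPC and 23 in KPC ASC KO against WT. Of 100 genes changed 4-fold it called 83, 84 and 67, with 6, 7 and 1 false calls. A gene that did not pass may therefore still differ by 2-fold.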

Additional observations from a re-analysis of the deposited data

Results flagged for a closer look

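The log2 ratio of Coro1a counts to the leukocyte marker sum had a single low mouse in each of 2 groups, of 45 groups of values that were looked at, and chance alone gives about 1 such mouse in 20 groups. In WT mouse 1202 the log2 ratio was -4.99, with the nearest WT mouse at -4.15. In KPC ASC KO mouse 335 it was -5.58, with the nearest KPC ASC KO mouse at -4.01. These rest on 3 and 2 Coro1a counts, beside leukocyte sums of 111 and 119 counts.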

How the results depend on the processing

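No paired analysis was possible because the groups share no mouse numbers. In KPC against WT, 9 of 9 members were called under every alternative scaling, filter and tool except limma-voom (8, without Coro1a), and with any 1 mouse left out (9 to 9). Of all genes, 6.1% (no low-count filter) to 79.6% (total counts) were called higher under those alternatives, and 11.4% to 16.2% with 1 mouse left out. Without KPC mice 40, 89, 145 and 154, 2 were called, and without KPC mice 43, 48 and 210, 9, both chosen after seeing the data. In these 2 fits 6.94% and 20.1% of all genes were called higher. In KPC ASC KO against KPC the 1 call became 9 with total counts, 2 with upper quartile scaling, 3 with DESeq2, 0 with limma-voom, 5 without a low-count filter, 6 at a minimum count of 20, 0 in the fit of 2 groups, 0 without the 4 mice, 8 without the 3, and 0 to 6 with 1 mouse left out. The share of all genes called lower, 2.69% in the main fit, became 73%, 3.28%, 2.51% and 1.2% in the first 4 of these. It was 1.32% without a low-count filter, 6.49% at a minimum count of 20 and 0.527% in the fit of 2 groups. It was 0.0171% without the 4 mice, 14% without the 3, and 0.23% to 5.62% with 1 mouse left out. All-gene calls in KPC against WT were 1023 higher and 1047 lower, and with total counts 5508 and 176. In KPC ASC KO against KPC they were 466 and 186, and with total counts 142 and 5051.

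Without the 4 mice, KPC ASC KO against KPC turned above 0 for Actb (0.071) and Coro1a (0.10), and for the log2 ratios of Tmsb10 to Tmsb4x (0.034), Coro1a to leukocytes (0.064) and Lcp1 to leukocytes (0.059). In KPC against WT the Coro1a to leukocyte ratio turned to -0.023, and the calls of Tmsb10 to Tmsb4x (0.32) and Arpc1b to Arpc1a (0.67, both adjusted p = 0.536) were lost, with 3 KPC mice left to permute. Without the 3 mice, the log2 ratio of Actg1 to Actb turned to -0.035 in KPC against WT and 0.048 in KPC ASC KO against KPC, and that of Lcp1 to leukocytes to 0.017 in KPC against WT. There Arpc1b to Arpc1a was no longer called (1.09, adjusted p = 0.0595), and Coro1a to leukocytes was (1.05). The KPC mice kept there were those in which the Coro1a to leukocyte ratio was highest, so that call is no test. The cause of the other changes was not tested.

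With 1 mouse left out, the log2 ratios in KPC against WT ran from -0.016 to 0.15 for Actg1 to Actb, 0.50 to 0.65 for Tmsb10 to Tmsb4x, 0.80 to 1.12 for Arpc1b to Arpc1a and -0.17 to 0.014 for Lcp1 to leukocytes. In KPC ASC KO against KPC they ran from -0.15 to 0.0036 for Actg1 to Actb, -1.02 to -0.55 for Arpc1b to Arpc1a and -0.29 to 0.11 for Lcp1 to leukocytes. In KPC ASC KO against WT they ran from -0.093 to 0.093 for Actg1 to Actb, -0.11 to 0.36 for Arpc1b to Arpc1a, -0.13 to 0.41 for Coro1a to leukocytes and -0.39 to 0.019 for Lcp1 to leukocytes, and Lcp1 itself from -0.0074 to 0.24. Depth limits Coro1a and Evl in WT, at 3 to 11 and 0 to 3 counts.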

Other observations

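Another 7 actin pathway genes passed in KPC against WT once KPC mice 40, 89, 145 and 154 were left out, and they were chosen after their values were seen. Cttn, cortactin, rose by 1.56 (adjusted p = 0.00593), where it had 0.86 (adjusted p = 0.111) with all KPC mice. Eps8, a capping and bundling protein, rose by 1.59 (adjusted p = 0.00824), against 0.91 (adjusted p = 0.12) with all mice. The bundling protein Pls3 rose by 2.27 (adjusted p = 0.0207), and Vil1, villin of epithelial microvilli, rose by 1.47 (adjusted p = 0.0185), against 1.62 (adjusted p = 0.0574) and 0.74 (adjusted p = 0.227). Cyfip2, a WAVE complex subunit, fell by 2.24 (adjusted p = 0.00515), where it had -0.79 (adjusted p = 0.177) with all mice. Raph1, a binding partner of Ena/VASP proteins, rose by 1.47 (adjusted p = 0.0403), against 0.98 (adjusted p = 0.11), and Dstn passed as given above. The 3 remaining KPC mice had duct marker sums of 1759 to 1992 CPM, and WT mice had 869 to 1459. The part of duct cells in these differences was not tested.

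Was, the Wiskott-Aldrich protein of blood cells, had 2 counts over the WT libraries, 129 over KPC and 9 over KPC ASC KO, and was too low to test.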
